A study of Mus musculus with 6 samples.

Results

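Complex III, cytochrome c, complex IV and the ATP synthase of the mitochondrial respiratory chain were examined through their nuclear genes in brown adipose tissue (BAT) of wild-type (WT) and miR-22 knockout (KO) mice. Members were the genes whose symbol starts with Uqcr, Cox4, Cox5, Cox6, Cox7, Cox8 or Atp5, together with *Cyc1* and *Cycs*. The symbols *Cox4i1*, *Cox4i2*, *Cox6a1*, *Cox6a2*, *Cox6b2*, *Cox7a1* and *Cox8b*, most of them isoforms of particular tissues, were left out. RefSeq lists 52 such symbols, 38 of them protein-coding and 14 pseudogenes. Of the protein-coding genes, 37 had a probe that could be matched through its RefSeq accession, out of 23462 genes with such a probe on the array. These 37 comprise 9 genes of complex III, cytochrome c itself, 10 genes of complex IV and 17 genes of the ATP synthase, and they were read by 50 probes. *Cox5b*, a subunit of complex IV, was the protein-coding gene without a matched probe. No probe was matched to the pseudogenes, which derive from *Atp5c1*, *Atp5k*, *Atp5l*, *Atp5pb*, *Cox5b*, *Cox6c*, *Cox7c* and *Uqcrh*, so signal from such near-identical copies cannot be told apart from that of the parent gene.

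Electrons from fuel oxidation reach complex III, pass to the small soluble carrier cytochrome c and from there to complex IV, where oxygen is reduced to water. Complexes III and IV pump protons out of the mitochondrial matrix, and the ATP synthase lets protons flow back through its ring of c subunits to make ATP. Brown adipocytes hold many mitochondria and the uncoupling protein Ucp1, which lets protons return without ATP being made and so releases heat. Their respiratory chain is abundant, whereas brown fat of rodents is known for a low content of ATP synthase relative to it.

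BAT was taken from 3 WT and 3 miR-22 KO male mice, 8 weeks old, with 1 mouse per single-dye Agilent mouse expression array. The KO mice lack miR-22 in every tissue, so BAT is not the only tissue affected, and no treatment was given in either group. The series' own text speaks of flow separation into TRIzol, whereas the study's methods mention no sorting of BAT, so whether the RNA came from the whole tissue or from separated cells is not settled by the sources used here. Arrays are called WT 1 to 3 and KO 1 to 3 here, which names them without pairing them. All values are the scanner signal on a log2 scale after subtraction of the array's 75th percentile, so that 1 unit is a doubling and 0 is the 75th percentile of an array. A probe signal shows how one gene differs between arrays, not how abundant its mRNA is against another gene's. A difference is KO minus WT, its error is the standard error (SE) from limma with n = 3 per group unless stated, and a gene was called when its unadjusted p was below 0.05, the threshold of the study's methods.

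The microRNA removed in the KO mice is shown first. In its mature 3p strand, at chr11:75463772-75463793 (GRCm38.p6, plus strand), bases 2 to 8, the seed that pairs with target mRNAs, are in capitals. It is shown because its loss is the difference between the groups.
mmu-miR-22-3p: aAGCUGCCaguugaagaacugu

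Promoter stretches follow for 5 members called lower in KO with the marked spots kept, and for *Atp5g1*. The difference of *Atp5g1* was above 0 but not called (0.16 ± 0.37), so it is no example of a gene higher in KO. A link between the letters of these stretches and the differences was not tested. Each stretch runs 100 bases along the gene's strand, from 80 bases before the annotated start to 20 after it, from RefSeq (GRCm38.p6). They lie at chr6:50566550-50566649 for *Cycs*, chr13:30545297-30545396 for *Uqcrfs1*, chr4:116075051-116075150 for *Uqcrh*, chr19:7217597-7217696 for *Cox8a*, chr19:47090628-47090727 for *Atp5md* and chr11:96075612-96075711 for *Atp5g1*, all on the minus strand. Capitals mark letters known from regulators of respiratory genes, the core GCGCANGCG of NRF1 in *Cycs* and CCGGAAG of ETS factors such as Gabpa in *Uqcrh*, *Cox8a* and *Atp5md*, in each case read on the opposite strand.
Cycs: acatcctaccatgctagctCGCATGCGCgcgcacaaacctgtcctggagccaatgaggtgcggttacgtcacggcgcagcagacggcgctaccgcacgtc
Uqcrfs1: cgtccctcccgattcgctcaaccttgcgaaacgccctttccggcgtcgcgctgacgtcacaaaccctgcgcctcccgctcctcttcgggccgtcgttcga
Uqcrh: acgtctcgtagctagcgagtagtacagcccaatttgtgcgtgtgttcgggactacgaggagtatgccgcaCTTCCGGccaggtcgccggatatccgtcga
Cox8a: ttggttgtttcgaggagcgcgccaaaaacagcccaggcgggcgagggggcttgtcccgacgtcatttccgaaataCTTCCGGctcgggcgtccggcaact
Atp5md: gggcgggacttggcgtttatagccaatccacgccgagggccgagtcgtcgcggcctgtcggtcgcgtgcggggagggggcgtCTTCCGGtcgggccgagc
Atp5g1: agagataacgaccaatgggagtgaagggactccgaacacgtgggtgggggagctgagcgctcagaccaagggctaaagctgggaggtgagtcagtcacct

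Over the full windows of 300 bases, which RefSeq tables held for 29 of the 37 members, 4 sets of letters were searched on both strands. The NRF1 core GCGCANGCG was present in 34.5% of the members, against 7.03% of all 27025 gene symbols with a window. The ETS letters CCGGAAG were present in 34.5% of the members and 9.93% of all symbols. The YY1 letters AAGATGGC stood in 10.3% against 3.19%, and the letters AAGGTCA of the estrogen-related receptors in 13.8% against 5.38%. In all, 18 members held at least 1 of the 4. Of the 5 members with a window that were called lower with marked spots kept, 1 held the NRF1 core and 3 the ETS letters. For the YY1 letters and those of the estrogen-related receptors it was 0 of 5. These are counts of letters, with no test and no measure of binding. The windows of *Uqcrfs1* and *Atp5g1* held none of the 4, and the 8 members without a window were *Uqcrb*, *Uqcrc2*, *Uqcrq*, *Cyc1*, *Cox6c*, *Cox8c*, *Atp5a1* and *Atp5mpl*.

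Facts of the arrays that touch the results come before them. Between 55.8% and 66.5% of the 59305 non-control spots of an array were well above background and none was saturated. The scanner software marked spots as non-uniform or as population outliers, and it did so far more often for members than for other spots, with 33.3, 47.4 and 77.2% of the 57 detected member spots marked on WT 1 to 3 and 77.2, 38.6 and 42.1% on KO 1 to 3. Among the 9891 spots at least as bright as the dimmest of these, the shares were 22.6, 29.3 and 63.9% in WT and 57.4, 26.3 and 25.1% in KO. All 6 arrays shared a slide, with WT 1 and WT 2 in its first row and WT 3 and the KO arrays in its second. All 12 listed markers of brown adipocytes and all 10 of adipocytes in general were detected. The mean of the brown list lay between 2.21 and 2.55 in WT and between 1.86 and 2.37 in KO, and that of all adipocytes between 4.49 and 4.77 in WT and between 4.17 and 4.65 in KO. *Ucp1* read 5.51, 5.85 and 5.53 in WT and 5.10, 4.999 and 5.65 in KO, a difference of -0.38 ± 0.21 that was not called (limma, adjusted p = 0.344). The mean of 20 skeletal muscle markers varied from -5.03 on WT 3 to 2.04 on WT 1 and from -0.35 on KO 1 to 3.19 on KO 2, all 20 being detected. miR-22 itself was not measured. The probe of its host gene *Mir22hg* read 1.20, 1.69 and 1.22 in WT and 2.02, 2.11 and 2.23 in KO, and whether it lies in the deleted part is not given in the sources used here, so the labels could not be checked through it.

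With marked spots left out, 10 of the 37 members had at least 2 usable values in each group and could be tested, and no member was called in either direction. The smallest adjusted p among them was 0.328 (limma, Benjamini-Hochberg over all 14712 genes tested). In that comparison 8.81% of all tested genes were called lower and 10% higher in KO. The 10 were *Uqcrc1*, *Uqcr10* and *Uqcr11* of complex III, *Cox7a2*, *Cox7a2l* and *Cox7c* of complex IV, and *Atp5d*, *Atp5g1*, *Atp5g2* and *Atp5l* of the ATP synthase. Differences of 9 of the 10 were below 0, and their median was -0.36 against -0.03 over all tested genes. By complex the medians were -0.38 for complex III, -0.37 for complex IV and -0.28 for the ATP synthase. Under quantile normalization, which gives all arrays the same distribution of signals, the same 10 had a median of -0.13.

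Among these, the members with the largest difference in each complex had clean or nearly clean spots. *Uqcr11*, a small subunit of complex III whose spot was unmarked on every array, read 4.94, 5.42 and 5.07 in WT and 4.52, 4.48 and 5.10 in KO. KO 1 and KO 2 lay below every WT array and KO 3 above WT 1 and WT 3, for a difference of -0.44 ± 0.22 (limma, adjusted p = 0.330). *Cox7a2*, the widely expressed form of a complex IV subunit, was also unmarked and read 5.26, 5.74 and 5.19 in WT and 4.75, 4.77 and 5.31 in KO, a difference of -0.45 ± 0.23 (limma, adjusted p = 0.328). The same array of KO mice, KO 3, again lay within the WT range. *Atp5l*, an accessory subunit in the membrane part of the ATP synthase, was marked on WT 3 and KO 1. Its other arrays read 5.03 and 5.50 in WT and 4.53 and 5.13 in KO, a difference of -0.43 ± 0.30 with n = 2 per group.

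Keeping the marked spots brought 35 members into the test and 7 of them were called lower in KO, with none higher. These were *Cyc1*, *Uqcrfs1* and *Uqcrh* of complex III, *Cycs*, *Cox8a* of complex IV, and *Atp5md* and *Atp5mpl* of the ATP synthase. In this comparison 11.1% of all 16111 tested genes were called lower and 9.47% higher. Of the 35 members, 29 had a mean scaled log2 signal above 4, where 13.3% of genes were called lower and 0% higher. Between 3 and 4 these shares were 20.6% and 0.50%. After adjustment over all genes none of the 7 remained, the smallest adjusted p being 0.154 (limma). Under quantile normalization with the marked spots kept, *Atp5md* alone was called lower, beside 10.6% of all genes. Called or not, 34 of the 35 differences were below 0, with a median of -0.36 against -0.06 over all tested genes. Over all genes with a mean signal above 4 the median was -0.31. Under quantile normalization 29 of the members were below 0, with a median of -0.11. The remaining 2 members, *Cox7b2* and *Cox8c*, isoforms known from testis, were not well above background on any array. In bulk RNA of either kind, fewer cells of a type and less mRNA per cell cannot be told apart.

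**Figure D1:**
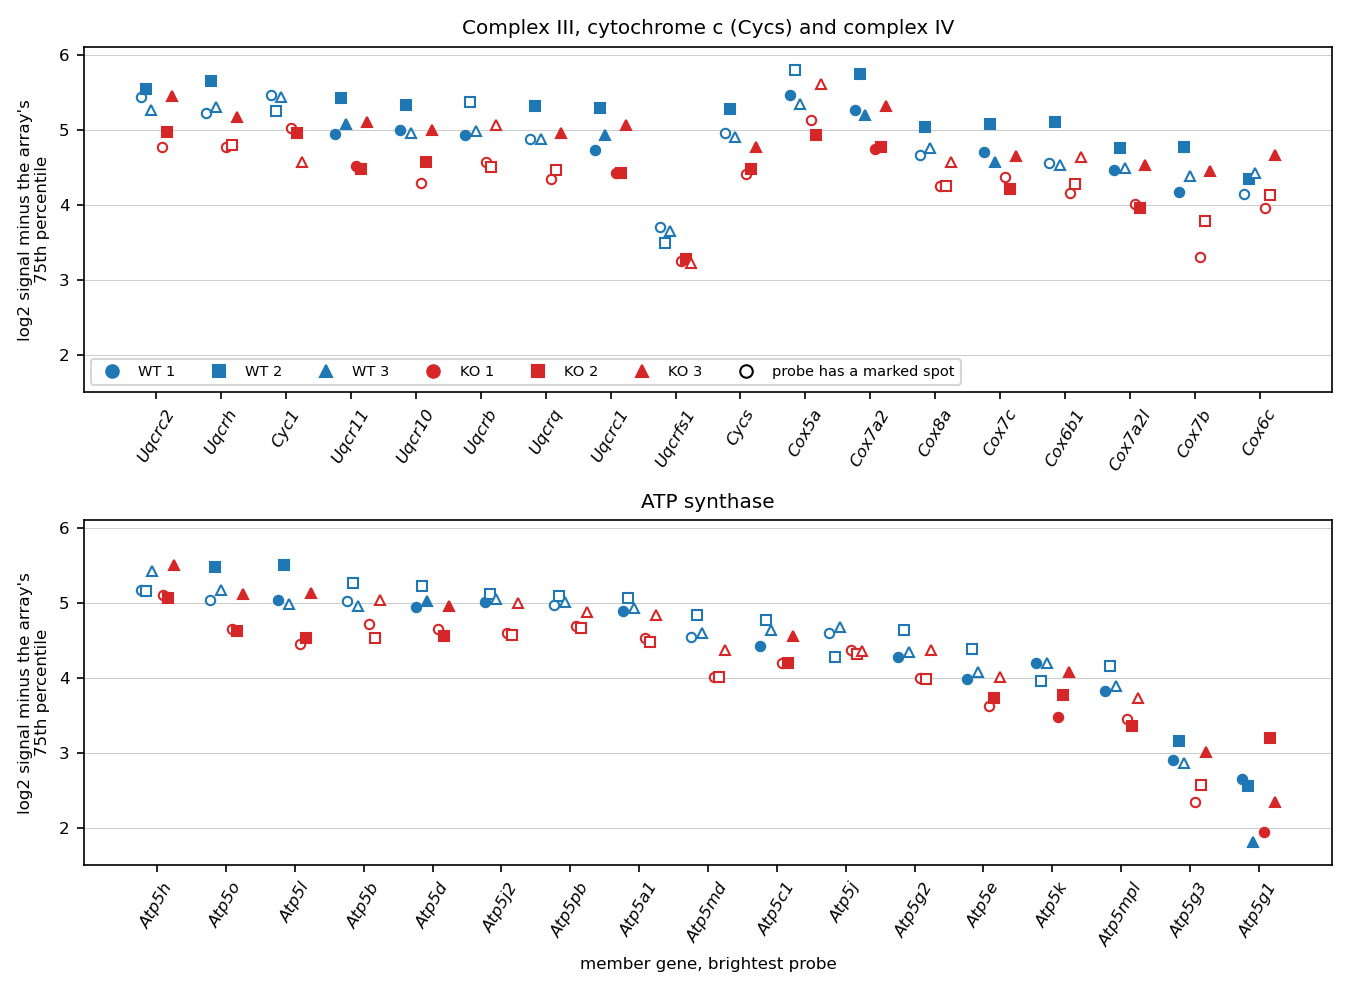
Signal of the brightest probe of each of the 35 tested members on the 6 arrays, marked spots kept, as log2 signal minus the array's 75th percentile (blue WT, red KO, symbol shape by array, open where the probe had a marked spot). KO 1 and KO 2 lie lowest for most members, while KO 3 mostly lies among the WT arrays, and many of the points of WT 3 and KO 1 are open.

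In complex III all 9 members were below 0 and 3 were called, with a median of -0.44. The catalytic subunits, which carry the redox centers outside cytochrome b, were both called. *Cyc1*, the cytochrome c1 that hands electrons to cytochrome c, read 5.46, 5.24 and 5.43 in WT and 5.02, 4.95 and 4.57 in KO. Every KO array lay below every WT array, and the difference was -0.53 ± 0.16, a signal 30.9% lower (limma, adjusted p = 0.157). Under quantile normalization the groups of *Cyc1* overlapped, with KO 1 and KO 2 above WT 2. There the difference was -0.23 ± 0.29 and was not called. *Uqcrfs1*, the Rieske iron-sulfur protein, read 3.70, 3.49 and 3.64 in WT and 3.25, 3.28 and 3.23 in KO. On this scale its groups did not overlap, and the KO arrays lay closer together than the WT arrays (SD 0.025 against 0.110). The difference was -0.36 ± 0.12 (limma, adjusted p = 0.190). Under quantile normalization KO 1 and KO 2 of *Uqcrfs1* lay above WT 2, and the SD was 0.18 in KO against 0.22 in WT. The difference there was -0.13 ± 0.16 and was not called.

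Among the small subunits of complex III the median was -0.44 and *Uqcrh*, the acidic hinge protein at the docking site of cytochrome c, was the called member of 5. It read 5.21, 5.65 and 5.30 in WT and 4.77, 4.80 and 5.17 in KO, a difference of -0.47 ± 0.18 without overlap (limma, adjusted p = 0.213). *Uqcr10* and *Uqcr11*, *Uqcrb* and *Uqcrq* had differences from -0.48 to -0.39 and were not called. The core subunits *Uqcrc1* and *Uqcrc2*, which form the part of the complex on the matrix side, had differences of -0.35 each. *Uqcrc2*, the probe with the most signal of the complex, read 5.44, 5.55 and 5.26 in WT and 4.77, 4.97 and 5.45 in KO, so KO 3 lay inside the WT range. The second probe of *Uqcrb* gave -0.09 ± 0.16 where its brightest gave -0.39 ± 0.21.

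Cytochrome c, from *Cycs*, read 4.95, 5.28 and 4.90 in WT and 4.41, 4.48 and 4.77 in KO. The groups did not overlap, KO 3 being the KO array nearest to WT, and the difference was -0.49 ± 0.17 (limma, adjusted p = 0.187). A second probe of the gene gave -0.43 ± 0.18. Of the promoters printed above, that of *Cycs* carries the NRF1 letters, which the windows of 10 of 29 members held. Of the 5 called members with a window, *Cycs* was the 1 that held them.

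Complex IV had 8 tested members, all below 0, with a median of -0.39 and *Cox8a* as the called one. *Cox8a*, the small subunit of most tissues, read 4.66, 5.03 and 4.76 in WT and 4.25, 4.25 and 4.57 in KO. The groups did not overlap, and the difference was -0.46 ± 0.16 (limma, adjusted p = 0.193). *Cox7b* had the lowest difference of all members, but was not called. It read 4.17, 4.77 and 4.38 in WT and 3.30, 3.78 and 4.45 in KO, and the spread within the KO group (SD 0.58) was close to the size of the difference, -0.59 ± 0.31 (limma, adjusted p = 0.320). The probe with the most signal, that of *Cox5a*, which binds on the matrix side, read 5.46, 5.79 and 5.34 in WT and 5.13, 4.92 and 5.60 in KO, with KO 3 above WT 1 and WT 3 and a difference of -0.31 ± 0.22. *Cox6b1*, *Cox7a2* and *Cox7c* had differences from -0.45 to -0.37 and *Cox6c* had -0.05 ± 0.21. *Cox7a2l*, which joins complexes III and IV into supercomplexes, had -0.41 ± 0.19. Under quantile normalization *Cox5a* and *Cox6c* changed sign, to 0.01 and 0.19.

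In the ATP synthase 16 of 17 members were below 0, with a median of -0.33, and the 2 called members were both accessory subunits of the membrane part. *Atp5md*, also known as DAPIT, which holds ATP synthase dimers in rows, read 4.55, 4.84 and 4.59 in WT and 4.01, 4.01 and 4.37 in KO. Every KO array lay below every WT array, by a difference of -0.53 ± 0.16, a signal 30.7% lower (limma, adjusted p = 0.154). Its second probe gave -0.44 ± 0.14, and the gene was still called under quantile normalization with -0.27 ± 0.091 (limma, adjusted p = 0.196). *Atp5mpl*, a short membrane subunit, read 3.82, 4.15 and 3.89 in WT and 3.45, 3.36 and 3.73 in KO. These groups did not overlap, and the difference was -0.44 ± 0.16 (limma, adjusted p = 0.202). The other accessory subunits *Atp5j2*, *Atp5k* and *Atp5l* had differences from -0.47 to -0.33, which gave the 5 a median of -0.44.

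The brightest probes of the catalytic head and central stalk, *Atp5a1*, *Atp5b*, *Atp5c1*, *Atp5d* and *Atp5e*, differed in a narrow range from -0.36 to -0.29. None was called. The other probes of *Atp5b* lay outside that range, at -0.75 ± 0.42 and -0.23 ± 0.18. The peripheral stalk, *Atp5pb*, *Atp5h*, *Atp5j* and *Atp5o*, keeps the head from turning. Its brightest probes ranged more widely from -0.43 to -0.03, and their median of -0.23 turned to 0.04 under quantile normalization. Both ends of this range depend on the probe. For *Atp5o*, at -0.43, the other probe gave -0.16 ± 0.18. *Atp5h*, the probe with the most signal of this complex, read 5.17, 5.15 and 5.42 in WT and 5.10, 5.06 and 5.50 in KO, a difference of -0.03 ± 0.17. Its other probes, however, gave -0.37 ± 0.22 and -0.36 ± 0.23, so the probes of *Atp5h* disagree in size. *Atp5pb*, *Atp5h* and *Atp5j* were the members of the stalk with a difference above 0 under quantile normalization.

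The c ring is built from *Atp5g1*, *Atp5g2* and *Atp5g3*, which encode the same mature subunit behind different import sequences. *Atp5g1* was the member above 0 and its spot was unmarked on every array. It read 2.65, 2.55 and 1.81 in WT and 1.94, 3.19 and 2.34 in KO. Each group spanned a wider range than the difference of 0.16 ± 0.37 (limma, adjusted p = 0.830). From highest to lowest the arrays ran KO 2, WT 1, WT 2, KO 3, KO 1 and WT 3, which is the order of the skeletal muscle mean. No other tested member, and 117 of all 16111 genes, had that order. A second, dimmer probe of *Atp5g1* gave 0.31 ± 0.54 and had another order, KO 2, WT 2, KO 3, WT 1, KO 1 and WT 3. With the muscle mean as a covariate the difference of the brightest probe of *Atp5g1* was -0.16. The part of muscle in these values was not tested. *Atp5g2*, printed at 10 spots, read 4.28, 4.77 and 4.34 in WT and 3.996, 3.99 and 4.40 in KO over its unmarked spots, a difference of -0.33 ± 0.20 (limma, adjusted p = 0.393). *Atp5g3* read 2.91, 3.16 and 2.86 in WT and 2.35, 2.58 and 3.01 in KO, a difference of -0.33 ± 0.20 (limma, adjusted p = 0.373). KO 3 lay within the WT range for both.

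**Figure D2:**
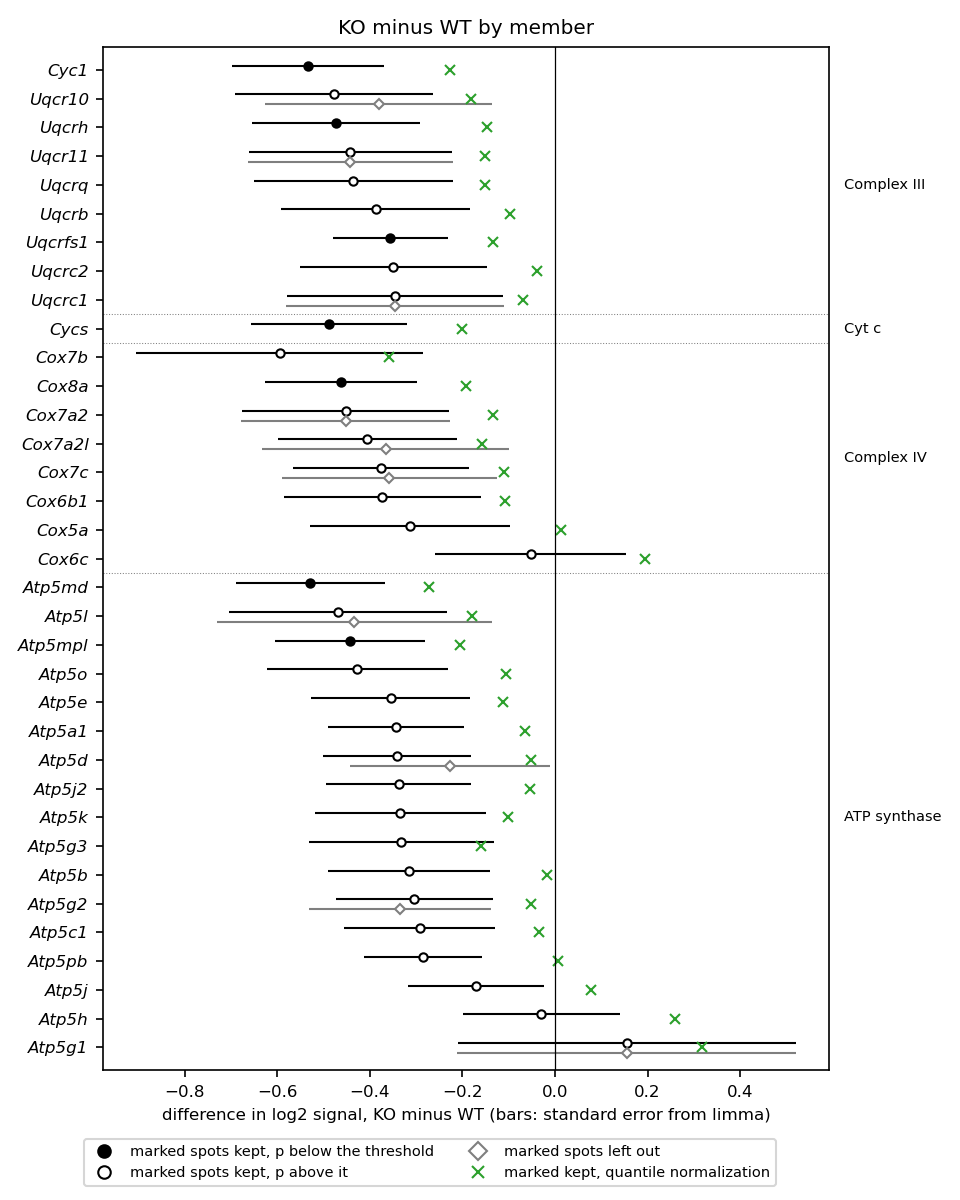
Difference in log2 signal, KO minus WT, for each tested member by complex, with the limma standard error (circles with marked spots kept, filled where p was below 0.05, diamonds with marked spots left out, crosses under quantile normalization with marked spots kept). With the marked spots kept 34 of 35 circles lie below 0, *Atp5g1* being the exception, and the crosses lie closer to 0, with 6 above it.

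The 7 called members all had marked spots, on 3 to 6 of the arrays, and for that reason could not be tested when such spots were left out. For the 4 members without any marked spot (*Uqcr11*, *Uqcrc1*, *Cox7a2* and *Atp5g1*) both treatments gave the same difference and no call. In all, 11 members had over 1 tested probe. Of their 13 further probes 12 gave a difference below 0, and 1, for *Atp5md*, had an unadjusted p below 0.05.

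Array by array, most members ran alike under the 75th percentile. KO 1 or KO 2 was the lowest of the 6 arrays for 31 of the 35 members, and WT 2 was the highest for 28. Both KO 1 and KO 2 lay below every WT array for 33 members, as they did for 29.5% of all tested genes. KO 3 lay below every WT array for 10 members, beside 4729 of all 16111 tested genes. Those 10 are the members with no overlap between the groups, which 17.1% of all genes showed (15.9% under quantile normalization, with 12 members). The median deviation of the members from their own mean was 0.09, 0.41 and 0.13 on WT 1 to 3 and -0.34, -0.32 and 0.11 on KO 1 to 3. On this scale KO 3 sat with WT 1 and WT 3. The 75th percentile used for scaling was itself an intensity of 1984, 1435 and 1602 on WT 1 to 3. It was 2538, 2633 and 1599 on KO 1 to 3, so KO 3 was near WT 3 here too. The part of this scaling value in the pattern of the arrays was not tested. Under quantile normalization the deviations of the members were far smaller, at 0.069, 0.067 and 0.085 in WT and -0.064, -0.044 and -0.026 in KO. KO 3 thus lay below 0 with the other KO arrays over all members, but not in every complex. It was at 0.018 for complex III, 0.006 for complex IV and -0.049 for the ATP synthase. For the ATP synthase WT 2, at -0.022, lay below KO 1, at -0.010. The mean of the adipocyte markers was likewise lowest on KO 2 and KO 1, at 4.17 and 4.20, and highest on WT 2, and its part in the difference of the members was not tested. Without KO 3 the number of members called lower went from 7 to 29, beside 13.7% of all genes, and none passed after adjustment (smallest adjusted p = 0.172, limma). Without KO 1 it was 2, beside 7.26% of all genes, and without KO 2 it was 3, beside 8.19%. Without WT 1, WT 2 or WT 3 it was 6, 3 and 4, beside 9.69, 6.96 and 7.42%. These fits leave 2 arrays in a group. Within the second row of the slide, where WT 3 stands alone against the KO arrays, 34 of 35 members were below 0 with a median of -0.30, beside 8992 of 16111 genes with a median of -0.058. With 1 WT array these are values without a test.

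**Figure D3:**
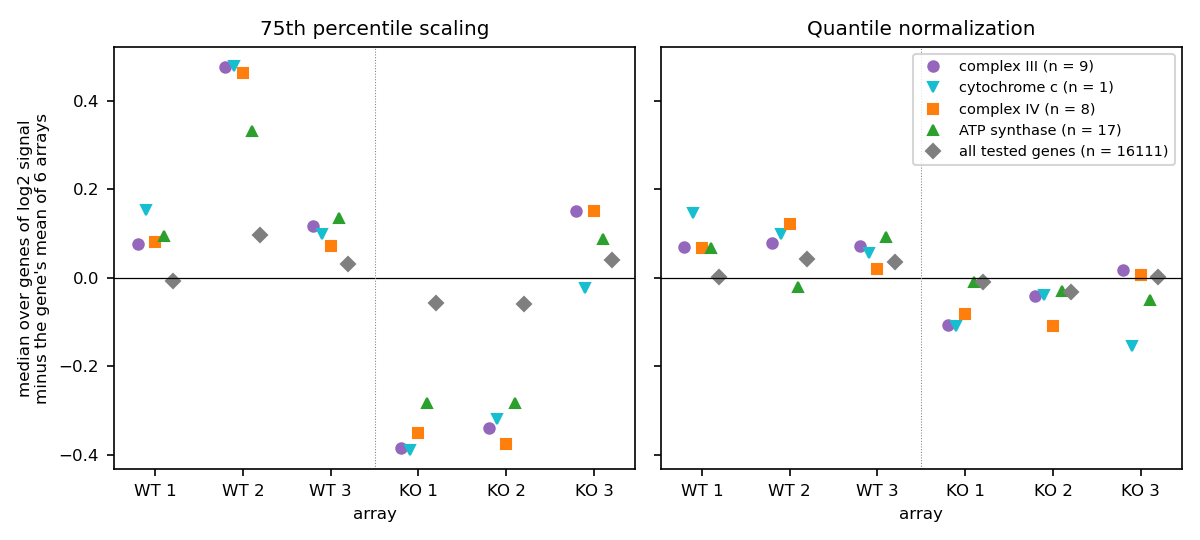
Median over the genes of a complex of the log2 signal minus the gene's own mean of 6 arrays, marked spots kept, for each array and in 2 scalings. Under the 75th percentile KO 1 and KO 2 lie between -0.39 and -0.28 and WT 2 between 0.33 and 0.48 for each complex, whereas under quantile normalization no complex lies further from 0 than cytochrome c on KO 3, at -0.15.

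The members are bright probes, and the difference between the groups moved with brightness across the whole array. Of the 35, 29 had a mean above 4 on the scaled log2 axis, where the array held 607 genes in all. The median difference of all genes fell from 0.16 at or below -2 to -0.10 between 0 and 2, -0.27 between 3 and 4 and -0.31 above 4. The median of the members, -0.36, thus stood beside -0.31 for genes of that brightness. Under quantile normalization the medians of these bins lay between -0.05 and -0.01, against -0.11 for the members. By complex the quantile medians were -0.15 for complex III, -0.12 for complex IV and -0.05 for the ATP synthase, with the marked spots kept, the same order as under the 75th percentile. For the 10 members tested without marked spots the order changed, with quantile medians of -0.15 for complex IV, -0.10 for the ATP synthase and -0.094 for complex III. With marked spots kept, all 9 members of complex III had a quantile difference below 0, but none was called. The differences ran from -0.23 ± 0.29 for *Cyc1* to -0.04 ± 0.13 for *Uqcrc2*.

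**Figure D4:**
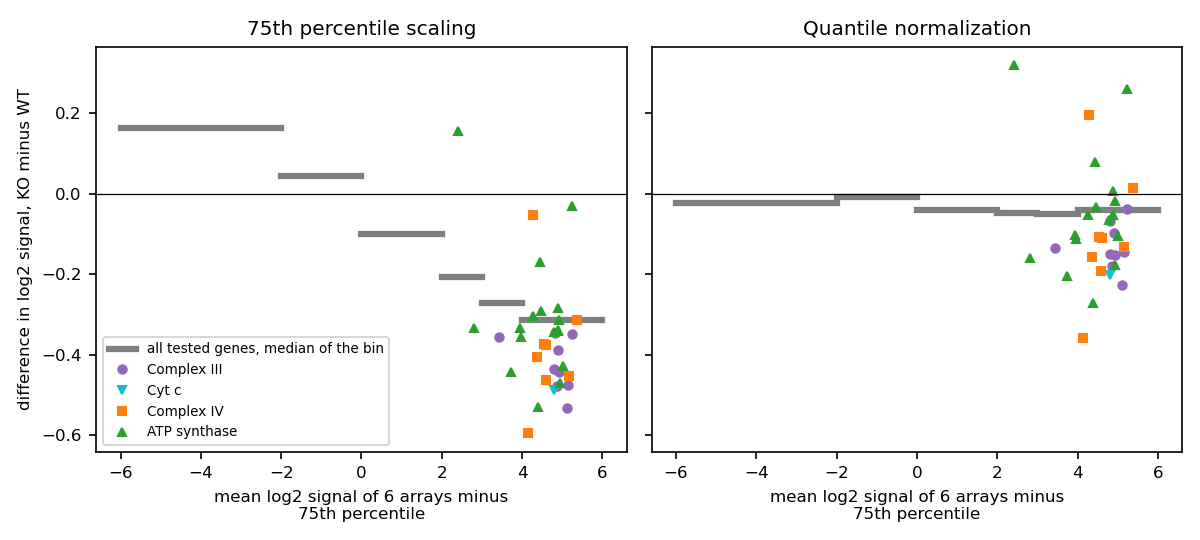
Difference in log2 signal, KO minus WT, against the mean scaled log2 signal of the 6 arrays, with bars for the median of all tested genes in a brightness bin and symbols for the members (the outermost bins are open-ended). Under the 75th percentile the bars fall from 0.16 to -0.31 with brightness and most members lie around or below the last bar, and under quantile normalization the bars are flat and the members scatter around and mostly below 0.

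Other genes of the pathway were read from lists compiled by hand alongside the members, with marked spots kept unless stated. Of 37 genes listed as subunits of complex I, which feeds electrons into the chain, 7 were called lower and none higher, with a median of -0.35. That list counts *Ndufa4* (-0.36 ± 0.19, not called), which is now placed in complex IV. Of 4 subunits of complex II 1 was called lower, *Sdhd*, a membrane anchor, with -0.44 ± 0.17. The list of assembly factors of complex IV counts *Timmdc1*, which is known as a factor of complex I and was not called. Assembly factors showed 10 of 31 lower for complex IV, 3 of 6 for complex III and 3 of 6 for the ATP synthase. None was higher, and the medians were -0.31, -0.31 and -0.33. These shares stand beside 11.1% lower among all genes, and none of these genes passed after adjustment. With the marked spots left out the calls were 4 of 24, 3 of 6 and 1 of 4, and 1 of 16 for complex I. Most of these calls were lost under quantile normalization. With the marked spots kept it left 3 of 31 assembly factors lower for complex IV, 0 of 6 for complex III, 1 of 6 for the ATP synthase and 1 of 37 subunits of complex I, beside 10.6% of all genes, and with the marked spots left out 2 of 24, 0 of 6, 0 of 4 and 1 of 16. The deposited log2 values gave 2 of 21, 0 of 6 and 0 of 2 for the assembly factors. Mitochondria-encoded subunits had no matched probe.

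The assembly factors with the smallest p, with marked spots left out, were *Smim20* (-0.64 ± 0.17), *Sco1*, a copper carrier (-0.51 ± 0.16, with n = 2 in WT), and *Cox19* (-0.50 ± 0.19) for complex IV. For complex III they were *Uqcc2* (-0.45 ± 0.17), *Bcs1l*, which inserts the Rieske protein (-0.33 ± 0.13), and *Uqcc3* (-0.46 ± 0.19). *Atpaf2*, a chaperone of the catalytic head of the ATP synthase, had -0.43 ± 0.14, and *Ndufab1* of complex I had -0.67 ± 0.18. For all of these the adjusted p of limma lay between 0.136 and 0.253. Of the complex IV isoforms left out of the members, *Cox7a1*, the form of heart and muscle that brown fat also uses, was called lower with -0.78 ± 0.28 on n = 2 per group but not with marked spots kept (-0.50 ± 0.24), and *Cox6b2*, a testis form, was called higher with 0.56 ± 0.17.

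Among 14 regulators of these genes 4 were called lower and 1 higher with the marked spots kept, beside 11.1% and 9.47% of all genes. *Tfb2m*, a factor of mitochondrial transcription, had -0.56 ± 0.13, *Ppargc1a*, the coactivator of mitochondrial biogenesis, -0.59 ± 0.15, *Esrra*, the estrogen-related receptor alpha, -0.49 ± 0.16, and *Gabpa*, the ETS factor whose letters are marked in the promoters above, -0.68 ± 0.26. With the marked spots left out 1 of 10 was called lower and 1 higher. *Esrra* was the lower one (-0.53 ± 0.20, with n = 2 in WT), *Gabpa* without its marked value on KO 3 was not called (-0.39 ± 0.18), and *Tfb2m* and *Ppargc1a* could not be tested. Quantile normalization gave 3 of 14 lower with marked spots kept and 0 of 10 without. *Esrrb* was called higher in both treatments of marked spots, with 1.05 ± 0.30. Its probe was dim, at -2.34, -1.98 and -2.24 in WT and -1.16, -1.72 and -0.54 in KO. Of all genes with a mean signal between -2 and 0, 12.1% were called higher with marked spots kept. With marked spots kept *Nrf1* differed by 0.18 ± 0.32 and *Yy1* by -0.20 ± 0.17, and neither was called. None of the 14 passed after adjustment (limma).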

How the data were processed

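RNA from BAT, 3 mice per genotype, was hybridized to Agilent mouse (V2) arrays with 1 dye. The authors deposited, per the file headers, spot intensity from Agilent Feature Extraction (11.5.1.1 in the headers, 10.7 in the submitters' processing notes), background-subtracted and detrended but not scaled between arrays, and a table of processed log2 values whose method is not given in the sources used here.

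Here log2 of the processed intensity minus each array's 75th percentile was used. Replicate spots were averaged, marked spots were left out, and probes needed the software's flag well above background on 3 arrays or more and 2 unmarked values per group. Of 56605 probes 33767 were matched to RefSeq symbols by accession, and the brightest testable probe stood for a gene. Groups were compared with limma 3.58.1 (R 4.3.3, data.table, 1.17.8), two-sided, with Benjamini-Hochberg adjustment over all genes. With 3 arrays per group, that number limits the precision, which is given as the SE. The steps were tested on simulated data.

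Values per array are given for every called member, for the largest difference in each direction and the probe with the most signal in each complex, and for the c ring genes, and up to 3 genes per direction are named from other lists. Alternatives were other scalings, normexp, the deposited log2 table, keeping marked spots, other filters, the mean of probes, SAM, the methods' t-test, the slide row as a block, a muscle covariate and leaving out each array. Combinations with marked spots kept, other than with quantile normalization, and the brightness bins were chosen after seeing the data. The members and lists were chosen with earlier results of these data known.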

Additional observations from a re-analysis of the deposited data

How the results depend on the processing

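No paired analysis was possible because the replicate numbers were given in accession order and pair no mice. Differences of the members had a median below 0 under every alternative run, and no member was called higher under any. With marked spots left out, 0 members were called lower. That number was 1 with normexp background correction (8.99% of all genes), 7 with marked spots kept and 1 with marked spots kept and quantile normalization. Of 35 members, kept marked spots gave 7 with the median scaling (11.6% of all genes), 8 with normexp (9.66%), 9 with the mean of a gene's probes (9.97%), 4 with SAM (7.86%) and 4 with the muscle covariate (7.98%). Leaving out each array gave 0 to 3, the highest without KO 3. With marked spots kept it gave 6, 3 and 4 without WT 1, WT 2 and WT 3 and 2, 3 and 29 without KO 1, KO 2 and KO 3, and with quantile normalization as well 0 to 1. For complex III, the median of -0.38 was -0.094 under quantile normalization. For complex IV, the median of -0.37 ranged from -0.64 to -0.25 over the arrays left out. With marked spots kept and quantile normalization it ranged from -0.17 to -0.080, the latter without WT 2, and was -0.12 without KO 2. The difference of *Atp5g1* changed sign to -0.16 with the muscle covariate, with marked spots left out or kept, to -0.11 without WT 3 and to -0.20 without KO 2 in both (the range over the arrays left out reached 0.43), and to -0.086 without KO 2 under quantile normalization with marked spots kept. The cause was not tested. The adjustment over all genes left no member called in any setting of the text. With 3 arrays per group, differences near -0.4 with an SE near 0.2 lie at the edge of what limma calls.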
